A study of Mus musculus with 4 samples.

Results

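The genes described here are 45 genes of the blood and lymphatic endothelium, taken by gene symbol from a count table of 55487 genes of whole mammary fat pad (MFP). They were grouped by role into 22 pan-endothelial genes, 7 arterial genes, 7 venous genes, 3 lymphatic genes and 6 angiogenic factors, and all 45 had enough counts to be tested. RNA came from female C57BL/6 mice, 2 aged samples of 14 months and 2 young samples of 8 weeks, with no transgene, deletion or treatment named in the labels. The MFP was lysed whole, so each library holds the RNA of endothelium, adipocytes, muscle, epithelium and immune cells together, and a lower level of an endothelial gene can mean fewer endothelial cells or less RNA per cell, which cannot be told apart. The labels call the 2 samples of each age biological replicates, and the p-values below measure only the spread between these samples. The study asked how the aged stroma differs from the young, and the comparison below gives the vessel genes of that stroma.

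Endothelial cells line blood and lymphatic vessels, seal them with junction proteins such as VE-cadherin and claudin 5, and respond to vascular endothelial growth factors (VEGFs) and angiopoietins made largely by the surrounding tissue. Arterial identity is kept by Notch signalling and SOXF transcription factors, venous identity by the nuclear receptor Nr2f2, and lymphatic identity by Prox1. Adipose tissue is densely supplied with capillaries, through which fatty acids reach adipocytes.

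Aged and young MFP could not be separated on most of the 45 endothelial genes, and none of them was called. With edgeR's quasi-likelihood test and Benjamini-Hochberg adjustment over 22485 genes, 0 of 45 members passed an adjusted p of 0.05, as did 0% of all genes tested, and the smallest adjusted p of any gene was 0.36. The highest aged value relative to young was that of Mmrn1, followed by Sele, Vwf, Selp, Sox7 and Vegfb, and the lowest was that of Cldn5. The 8 general endothelial markers Pecam1, Cdh5, Kdr, Tie1, Tek, Cldn5, Esam and Robo4 had log2 fold changes between -0.46 and 0.39, 4 of them positive and 4 negative, Esam turning negative under scaling by total counts.

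The 250 bases before the transcription start are printed for 4 members, the VEGF receptors Flt1 and Kdr, whose ratio did not overlap between the ages, and the selectins Sele and Selp, which were both lowest in young replicate 1. Sequences are from RefSeq (GRCm38.p6), read 5′ to 3′ on the strand of the gene, with capitals marking 3 motifs searched on either strand. The motif AGGAAG and its variant CGGAAG hold the core bound by ETS factors such as the members Erg and Fli1. The motif AACAAT is a core bound by SOX factors such as the members Sox7, Sox17 and Sox18.

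Flt1, minus strand, chr5:147726012-147726261: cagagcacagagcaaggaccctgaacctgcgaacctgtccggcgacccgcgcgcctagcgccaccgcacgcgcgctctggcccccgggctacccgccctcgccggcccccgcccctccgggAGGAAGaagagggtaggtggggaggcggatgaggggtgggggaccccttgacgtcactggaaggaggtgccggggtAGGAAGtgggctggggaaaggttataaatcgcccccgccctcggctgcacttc

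Kdr, minus strand, chr5:75978456-75978705: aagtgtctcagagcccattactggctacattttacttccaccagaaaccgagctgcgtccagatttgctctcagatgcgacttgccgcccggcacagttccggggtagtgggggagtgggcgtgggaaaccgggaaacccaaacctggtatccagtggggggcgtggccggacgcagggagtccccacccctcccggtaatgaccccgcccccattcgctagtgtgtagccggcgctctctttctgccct

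Sele, plus strand, chr1:164047984-164048233: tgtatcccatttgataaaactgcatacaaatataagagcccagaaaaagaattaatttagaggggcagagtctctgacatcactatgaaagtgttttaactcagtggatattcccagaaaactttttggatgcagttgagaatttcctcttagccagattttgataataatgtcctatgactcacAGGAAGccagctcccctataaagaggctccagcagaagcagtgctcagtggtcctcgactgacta

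Selp, plus strand, chr1:164115014-164115263: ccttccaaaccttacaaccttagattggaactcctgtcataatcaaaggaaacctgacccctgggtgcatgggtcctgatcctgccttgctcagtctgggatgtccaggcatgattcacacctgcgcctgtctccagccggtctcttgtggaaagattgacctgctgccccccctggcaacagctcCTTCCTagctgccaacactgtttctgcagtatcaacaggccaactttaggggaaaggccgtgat

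The Flt1 window held 2 matches, both AGGAAG as printed, Sele and Selp held 1 match each, and the Kdr window held 0 matches. A RefSeq promoter was matched for 29 of the 45 members, and 15 of these 29 held AGGAAG, a share of 51.7% beside 32.3% of 27025 genes. CGGAAG was in 1 of the 29, Tie1, a share of 3.4% beside 15.3%, so that either ETS core was in 51.7% of the members and 42.5% of all genes. Tie1 held both. AACAAT was in 4 of the 29 (Emcn, Erg, Mmrn1 and Tek), 13.8% beside 10.9%. These letters are a description of the windows and not evidence of binding, and a window without them says nothing about the factor.

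Total counts per library were between 68803304 and 98402403, and 3 counts, the smallest number told from 0 here, corresponded to 0.0337 to 0.0407 CPM (the count divided by the TMM-scaled library size, the usual unit of edgeR), which covers counting error only. Values are given below as CPM with replicate 1 before replicate 2. Members took 0.303% and 0.218% of all counts in the aged libraries and 0.234% and 0.279% in the young. Young replicate 1 stood apart from the other libraries. Its summed level of 10 B, plasma and T cell markers was 835 CPM, where the aged libraries had 20.8 and 198 CPM and young replicate 2 had 4.53 CPM. Of those 10 markers, 9 were highest in young replicate 1, the exception being Jchain, and all 10 proliferation markers were highest there too. The members Pecam1, Cdh5, Kdr, Tie1, Tek, Cldn5, Esam and Robo4 were far above the floor in all 4 libraries. The lowest value was 11.9 CPM for Cldn5 in aged replicate 2. This says only that each whole-tissue library held endothelial RNA.

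Per length of exon, the most abundant member was Aqp1, a water channel of capillary endothelium and red cells, at a mean of 94.5 CPM per kilobase, followed by Rgcc at 80.2, Vegfa at 59.0, Vegfb at 40.8 and Cdh5 at 39.8. The lowest were Sele at 0.40, the lymphatic regulator Prox1 at 0.23 and Mmrn1 at 0.16 CPM per kilobase. Within every library Aqp1 was above Rgcc, Vegfa above Vegfb, and Cdh5 above Eng, the next in the order. Rgcc and Vegfa changed places in young replicate 2, and Vegfb and Cdh5 in both young libraries, so those places are not resolved. Arterial and venous markers lay mostly between these ends, and the 3 lymphatic genes, Flt4, Prox1 and Mmrn1, were at 1.78 CPM per kilobase or below.

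**Figure D1:**
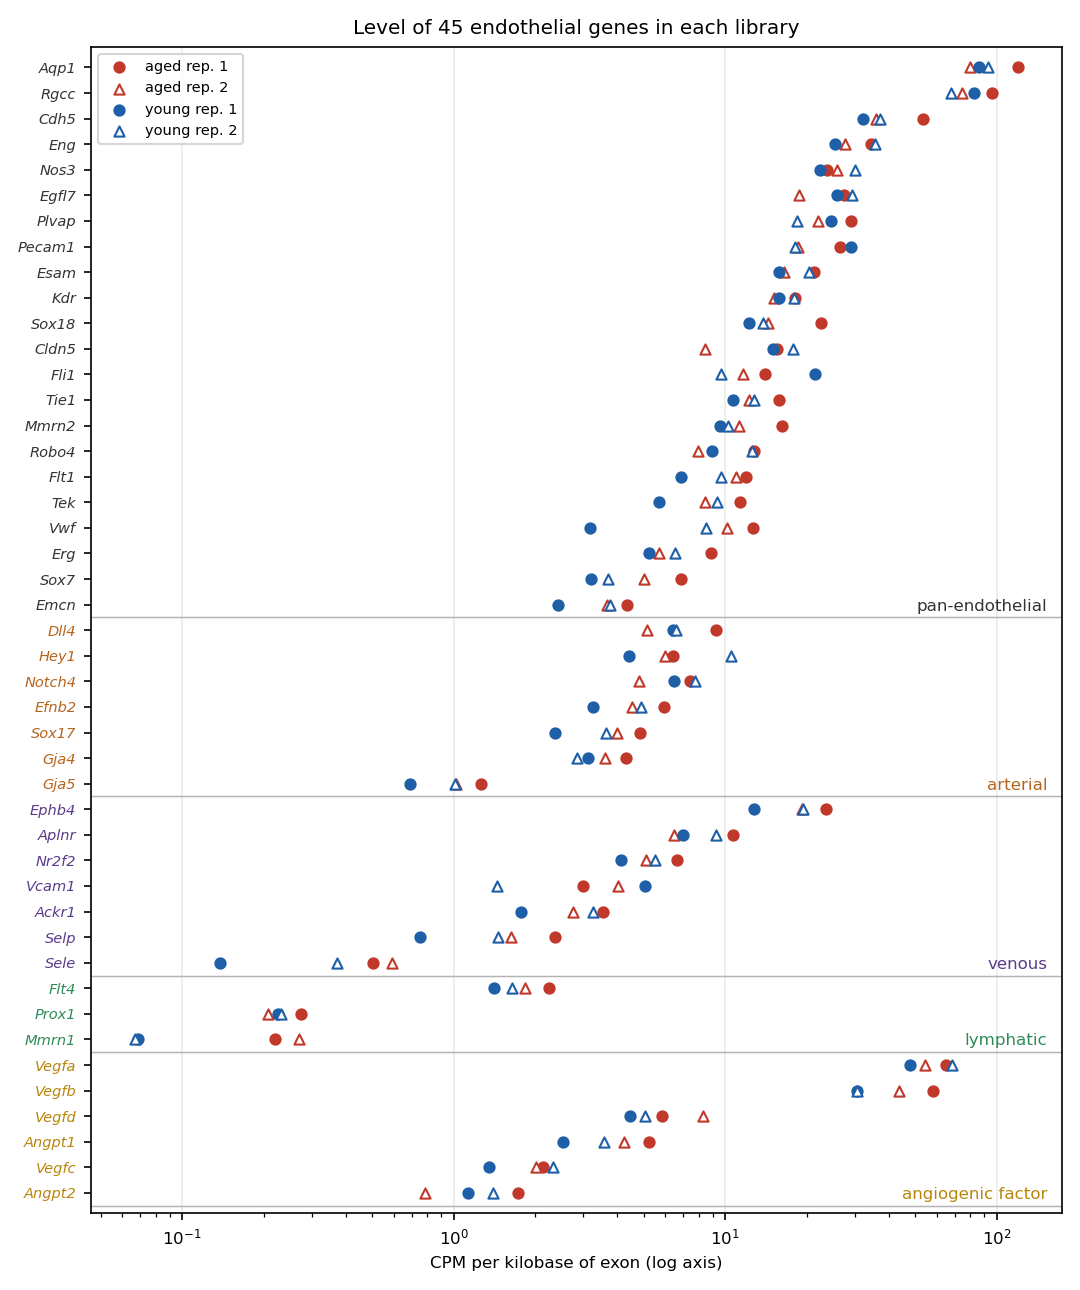
Level of each of the 45 members in each library, in CPM per kilobase of merged exons on a log axis, grouped by role and ordered by mean within a role (red marks aged and blue marks young libraries, filled circles replicate 1 and open triangles replicate 2). Levels run from 0.16 CPM per kilobase for Mmrn1 to 94.5 for Aqp1, and for most genes the red and blue marks interleave.

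Across the 45 members the fitted log2 fold change, aged over young, had a median of 0.28, beside -0.04 for all genes tested, and ran from -0.46 to 1.85. It was positive for 35 members and negative for 10, but scaling by total counts alone gave 26 positive and 19 negative, with a median of 0.11 beside -0.22 for all genes, so that the distance between members and all genes was 0.32 on the log2 scale either way. At an unadjusted p of 0.05, 3 members were higher in aged MFP (Mmrn1, Vegfb and Sox7) and 0 were lower, where 7.24% and 3.31% of all genes tested passed in the same directions. Both aged CPM values lay above both young values in 15 of the 45 members, beside 23.3% of all genes, and below them in 0 members, beside 22.8% of all genes. The other 30 overlapped. DESeq2, the tool named by the study, called 1 member, Mmrn1, higher in aged MFP, where it called 3.17% of 22385 genes higher and 0.692% lower.

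The position of single libraries weighed heavily on these values. Aged replicate 1 had the highest CPM in 31 of 45 members, where it was highest in 20.9% of all genes tested, and young replicate 1 had the lowest CPM in 27, where it was lowest in 33.8%. Aged replicate 1 was above aged replicate 2 in 40 of 45 members, with a median difference of 0.37 on the log2 CPM scale, which exceeds the median fold change between the ages. Leaving out aged replicate 1 brought the median fold change of the members to 0.07, and leaving out young replicate 1 brought it to 0.14, while leaving out aged replicate 2 or young replicate 2 brought it to 0.45 and 0.48. An exact permutation test of 2 samples against 2 cannot give a two-sided p under 0.333 for any single gene.

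**Figure D2:**
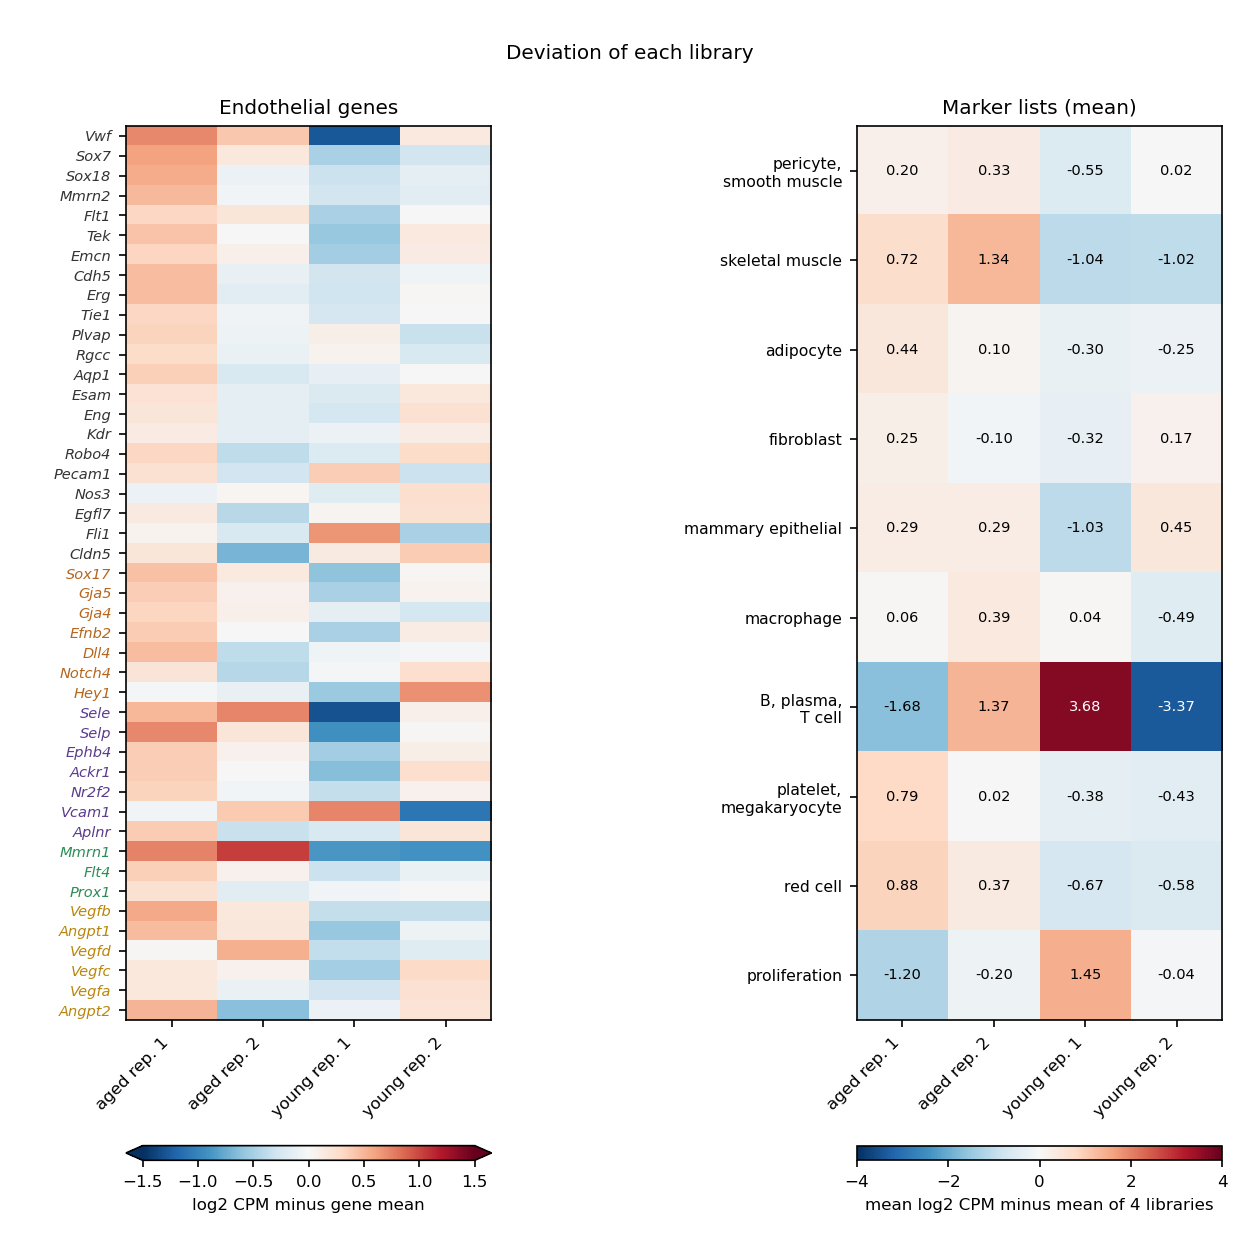
Left, log2 CPM of each member minus its mean over the 4 libraries, in rows grouped by role (label colours) and in columns by library. Right, the same for the mean over each of 10 marker lists, on a wider colour scale with its values printed (red above and blue below the mean). The aged replicate 1 column is mostly red and the young replicate 1 column mostly blue on the left (Fli1, Pecam1 and Vcam1 are highest there), and the B, plasma and T cell list of young replicate 1 stands 3.68 above its mean on the right.

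The median log2 fold change of the pan-endothelial members was 0.21, with 15 positive, 7 negative, 0 called and 5 not overlapping between the ages, a share to be read beside the 23.3% of all genes given above. Without aged replicate 1 this median was -0.04, and under scaling by total counts it was 0.04. Cdh5, which encodes VE-cadherin, was at 226 and 151 CPM in aged MFP and 136 and 156 CPM in young. Pecam1, the adhesion molecule CD31, was at 165 and 115 CPM in aged MFP and 181 and 113 CPM in young. Kdr, the main signalling VEGF receptor, was at 164 and 137 CPM in aged MFP and 142 and 162 CPM in young. For all 3 the ages overlapped, with log2 fold changes of 0.37 ± 0.25 (SE) for Cdh5, -0.07 ± 0.32 for Pecam1 and -0.02 ± 0.17 for Kdr. The value of Cdh5 rested on aged replicate 1, being 0.03 without it and 0.63 without aged replicate 2. Tie1, Tek, Emcn, Esam, Eng, Robo4, Egfl7, Erg, Nos3, Plvap, Aqp1 and Rgcc overlapped likewise, with log2 fold changes between -0.25 for Egfl7 and 0.39 for Tek.

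Sox7, a SOXF transcription factor of endothelial specification (ENSMUSG00000063060, GRCm38 chromosome 14, 63943673 to 63950732), was at 22.6 and 16.6 CPM in aged MFP and 10.6 and 12.2 CPM in young. Both aged libraries were above both young, by a log2 fold change of 0.78 ± 0.24 (SE, n = 2 per age, adjusted p = 0.445, edgeR). Its relative Sox18 was at 36.4 and 23.2 CPM in aged and 19.7 and 22.4 CPM in young MFP, where aged replicate 2 and young replicate 2 nearly met. Sox17, counted among the arterial genes, was at 23.2 and 19.1 CPM against 11.3 and 17.4 CPM. All 3 SOXF genes had the 2 aged libraries on top, as had 23.3% of all genes tested. Their log2 fold changes were 0.78, 0.50 and 0.56, with adjusted p of at least 0.445 (edgeR). Under scaling by total counts only Sox7 kept the ages apart. The value of Sox18 was 0.12 without aged replicate 1 and that of Sox17 was 0.28 without young replicate 1.

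Vwf, von Willebrand factor, which endothelium stores and secretes for platelet adhesion, was at 203 and 163 CPM in aged MFP and 50.8 and 136 CPM in young. Its log2 fold change was 0.97 ± 0.52 (SE, adjusted p = 0.537, edgeR), and without young replicate 1 it was 0.42. Flt1, the VEGF receptor that binds Vegfa and Vegfb and acts in part as a decoy, was at 161 and 148 CPM in aged and 93.2 and 130 CPM in young MFP (log2 fold change 0.47 ± 0.21, adjusted p = 0.509, edgeR). Mmrn2, an endothelial matrix protein, was at 64.5 and 44.6 CPM against 37.9 and 40.8 CPM. These 3 genes, with Sox7 and Sox18, are the 5 pan-endothelial members whose ages did not overlap. The log2 fold change was 0.25 without young replicate 1 for Flt1 and 0.16 without aged replicate 1 for Mmrn2.

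Cldn5, the tight-junction claudin of endothelium (ENSMUSG00000041378, chromosome 16, 18776847 to 18778262), was at 22.0 and 11.9 CPM in aged MFP and 21.3 and 25.2 CPM in young. Only aged replicate 2 was low, and the log2 fold change was -0.46 ± 0.35 (SE, adjusted p = 0.609, edgeR), or -0.09 without aged replicate 2. Fli1, an ETS factor of endothelium that lymphocytes also express, was at 48.9 and 40.5 CPM in aged and 74.8 and 33.6 CPM in young MFP. It was highest in young replicate 1, and so was Pecam1, which leukocytes also carry. Without young replicate 1 the log2 fold changes turned from -0.28 to 0.41 for Fli1 and from -0.07 to 0.32 for Pecam1. The ETS gene Erg, whose expression is more restricted to endothelium, was at 30.8 and 19.8 CPM against 18.2 and 22.5 CPM and did not share the high value in young replicate 1. The part of the lymphocyte marker level of that library in the values of Fli1 and Pecam1 was not tested.

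**Figure D3:**
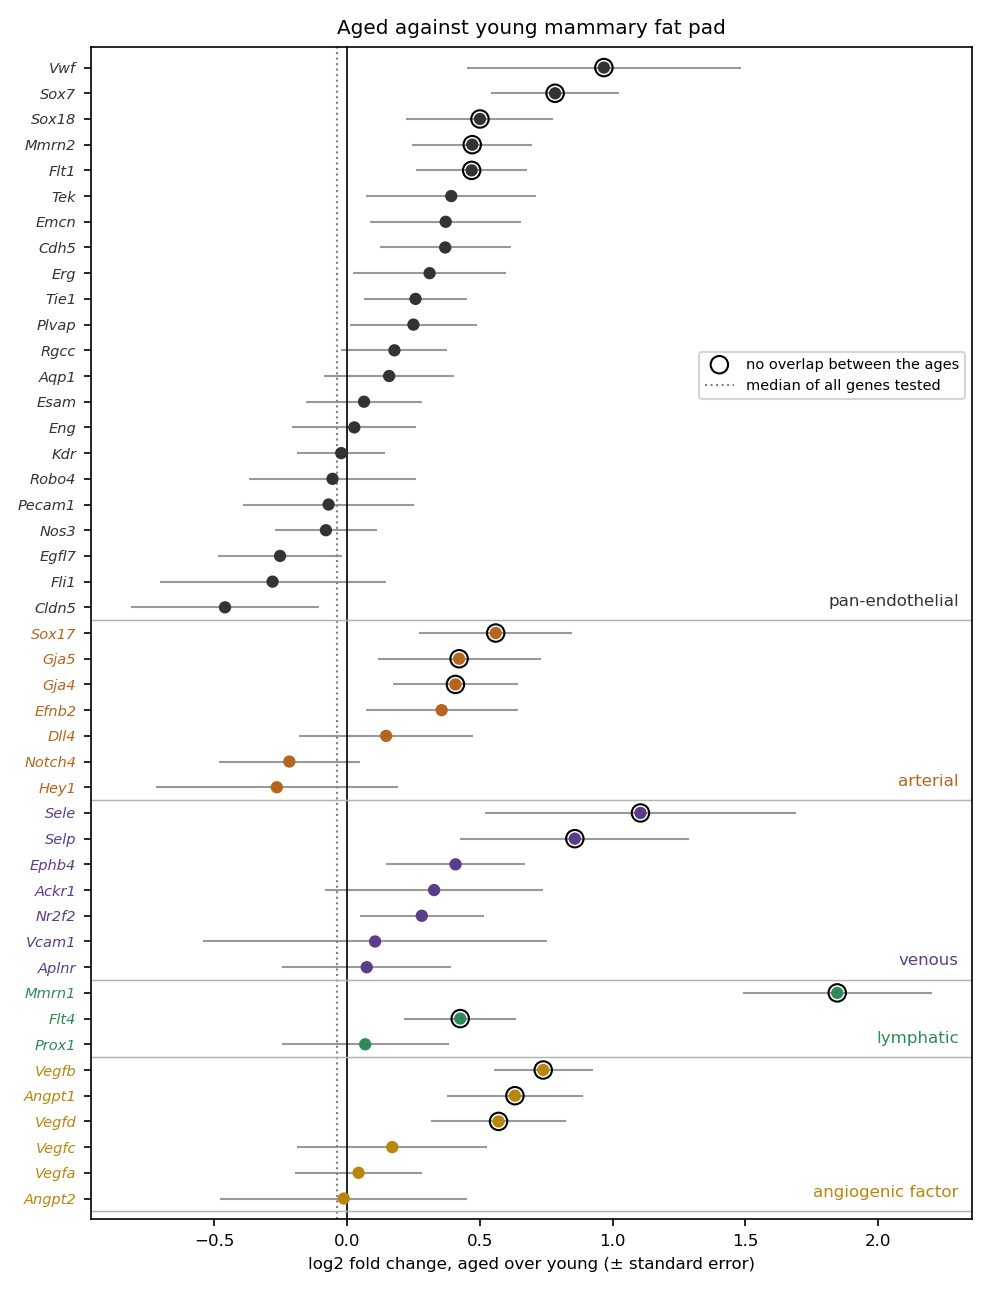
Fitted log2 fold change of each member, aged over young, with its standard error (edgeR, n = 2 per age), grouped by role. Circled points are the 15 members in which both aged libraries lay above both young, and the dotted line is the median of all genes tested, -0.04. Mmrn1 lies farthest to the right at 1.85 and Cldn5 farthest to the left at -0.46.

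Among arterial members the median log2 fold change was 0.36, with 5 positive and 2 negative and none called by edgeR or DESeq2. That median was 0.13 without either aged replicate 1 or young replicate 1 and 0.18 under scaling by total counts. The connexin genes Gja4 and Gja5, gap-junction proteins of arterial endothelium, lay above young in both aged libraries. Gja4 was at 7.25 and 6.10 CPM in aged and 5.25 and 4.81 CPM in young MFP. Gja5 was at 7.24 and 5.86 CPM in aged and 3.98 and 5.80 CPM in young MFP, so that aged replicate 2 and young replicate 2 were nearly equal. Efnb2, the arterial ephrin ligand, was at 40.7 and 31.0 CPM against 22.3 and 33.7 CPM, and the Notch ligand Dll4 at 35.7 and 19.9 CPM against 24.8 and 25.4 CPM, both overlapping. The Notch target Hey1 and the receptor Notch4 had negative log2 fold changes, -0.26 ± 0.45 and -0.22 ± 0.26 (SE). Hey1 was highest in young replicate 2, at 34.3 CPM, and lowest in young replicate 1, at 14.5 CPM, with the aged libraries between them at 20.96 and 19.6 CPM.

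All 7 venous members had positive log2 fold changes, with a median of 0.33, but 3 of the 7 (Ackr1, Vcam1 and Aplnr) turned negative when 1 library was left out, and Vcam1 and Aplnr also under scaling by total counts. The venous median was 0.14 without young replicate 1, 0.75 without young replicate 2 and 0.15 under scaling by total counts. The endothelial selectins, which capture rolling leukocytes on activated venules, had the largest differences. Sele (ENSMUSG00000026582, chromosome 1, 164048234 to 164057677) was at 1.47 and 1.73 CPM in aged MFP and 0.40 and 1.08 CPM in young, from 33 to 154 counts per library. Selp (ENSMUSG00000026580, chromosome 1, 164115264 to 164150026), which platelets carry as well, was at 10.4 and 7.19 CPM against 3.32 and 6.40 CPM. Both aged libraries were above both young for each selectin, with log2 fold changes of 1.11 ± 0.59 for Sele and 0.86 ± 0.43 for Selp (SE, adjusted p = 0.537 and 0.53, edgeR), and both were lowest in young replicate 1. Without that library the values were 0.56 for Sele and 0.46 for Selp.

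Vcam1, an adhesion molecule of activated endothelium and stromal cells, did not share the low value of the selectins in young replicate 1. It was at 26.4 and 35.7 CPM in aged MFP, and the young libraries lay on either side, at 44.98 and 12.8 CPM. Its log2 fold change of 0.11 ± 0.65 (SE) became 1.28 without young replicate 1 and -0.53 without young replicate 2. Ackr1, the chemokine-binding receptor of venules, was at 5.002 and 3.87 CPM against 2.48 and 4.59 CPM. The ephrin receptor Ephb4 was at 109 and 88.9 CPM against 59.0 and 90.0 CPM, and Nr2f2 at 57.1 and 44.1 CPM against 35.5 and 47.7 CPM. In these 3 genes young replicate 1 was low and young replicate 2 lay between the aged libraries.

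Of the 3 lymphatic members, Mmrn1 (ENSMUSG00000054641, chromosome 6, 60924976 to 60989378) had the largest fold change of the 45. This gene encodes multimerin 1, a secreted protein made by lymphatic endothelium and stored in platelets. It had 105 and 141 counts in aged MFP and 33 and 29 in young, or 1.28 and 1.58 CPM against 0.40 and 0.39 CPM, so that the ages did not overlap. The mean was 3.604-fold higher in aged MFP, a log2 fold change of 1.85 ± 0.36 (SE, n = 2 per age, unadjusted p = 0.006, adjusted p = 0.37, edgeR), and between 1.68 and 1.97 with any 1 library left out. DESeq2 gave an adjusted p of 0.005. Flt4, the receptor of Vegfc and Vegfd, was at 18.5 and 15.1 CPM against 11.6 and 13.5 CPM, a log2 fold change of 0.43 ± 0.21 (SE, adjusted p = 0.527, edgeR). Prox1 was at 2.29 and 1.73 CPM against 1.89 and 1.94 CPM, with aged replicates on either side of the young.

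Other lymphatic genes varied. Of 9 further genes listed for lymphatic vessels, 7 were tested, 4 with a positive and 3 with a negative log2 fold change, a median of 0.06 and 0 called. Lyve1, the hyaluronan receptor, was at 4.32 and 7.91 CPM in aged and 4.55 and 5.50 CPM in young MFP, and Pdpn, podoplanin, at 6.98 and 9.77 CPM against 4.56 and 6.03 CPM. The largest increase of this list was that of the transcription factor Tbx1, at 3.88 and 13.3 CPM against 2.77 and 3.08 CPM, with the highest value in aged replicate 2, and the largest decrease that of the scavenger receptor Stab2, at 1.52 and 4.12 CPM against 7.34 and 0.935 CPM. Platelets also hold the products of Mmrn1, Selp and Vwf. Summed CPM over 7 platelet markers was 17.1 and 12.7 in aged and 12.9 and 15.7 in young MFP, Gp1bb had at most 1 count in any library, Pf4 was at 8.89 and 7.97 CPM against 5.12 and 4.07 CPM, and Itga2b, at 6.26 and 3.81 CPM against 7.23 and 11.2 CPM, made up much of the sum. Of 5 platelet markers tested 4 had positive log2 fold changes, with a median of 0.88. Without overlap, 3 were higher in aged MFP and 1, Itga2b, was lower, beside 23.3% and 22.8% of all genes tested. The largest increase was that of Gp6, with 27 and 14 counts against 2 and 1. All 5 red cell markers were higher in both aged libraries, again beside 23.3% of all genes, and summed to 212 and 157 CPM against 72.7 and 81.5 CPM. The part of blood in these values was not tested.

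The 6 angiogenic factors had log2 fold changes with a median of 0.37, 5 of them positive and 1 negative. Their median was 0.13 without young replicate 1, 0.64 without young replicate 2 and 0.19 under scaling by total counts. Vegfb (ENSMUSG00000024962, chromosome 19, 6982473 to 6987651), a VEGF abundant in muscle and fat that binds Flt1, was at 93.5 and 70.3 CPM in aged MFP and 49.1 and 49.1 CPM in young. Its log2 fold change was 0.74 ± 0.19 (SE, n = 2 per age, unadjusted p = 0.015, adjusted p = 0.409, edgeR), the second smallest unadjusted p of the 45 members, and 0.50 to 0.92 with any 1 library left out. Vegfa, the main ligand of Kdr, was at 279 and 234 CPM against 205 and 292 CPM, with the young libraries outside the aged, a log2 fold change of 0.04 ± 0.24. The lymphangiogenic factors differed in overlap, Vegfd standing at 14.1 and 20.0 CPM against 10.7 and 12.2 CPM and Vegfc at 5.21 and 4.92 CPM against 3.29 and 5.70 CPM. Angpt1, the agonist of the receptor Tek made by pericytes and muscle cells, was at 27.2 and 22.0 CPM against 13.2 and 18.5 CPM, above young in both aged libraries, while the endothelial antagonist Angpt2 was at 6.35 and 2.89 CPM against 4.17 and 5.14 CPM. Skeletal muscle markers were higher in both aged libraries, 12 of 12, with sums of 43833 and 71545 CPM against 11671 and 16262 CPM. So were adipocyte markers, 11 of 12, with sums of 17066 and 12794 CPM against 10421 and 10563 CPM. Of all genes tested, 23.3% were higher in both aged libraries than in either young. The paper reports lower levels of the adipogenic proteins CD36, FABP4, FASN and PPARG in aged MFP, with tissue staining. A summed RNA level of 12 adipocyte markers is another measure over other genes. It was not set against the paper's proteins gene by gene here. How much of Vegfb, Vegfd and Angpt1 came from muscle or fat was not tested.

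Ratios within a library hardly depend on the scaling between libraries, and 16 were taken, as differences in log2 CPM. These are not corrected for gene length, so only their change between libraries is read. Flt1 relative to Kdr was -0.02 and 0.11 in aged and -0.61 and -0.32 in young MFP, the aged mean being higher by 0.51. Cldn5 relative to Cdh5 was -3.36 and -3.67 in aged and -2.67 and -2.63 in young MFP, a difference of -0.86 between the means with both aged libraries below both young. Vegfa relative to Vegfb was 1.58 and 1.73 in aged and 2.06 and 2.58 in young MFP, and Angpt2 relative to Angpt1 was -2.10 and -2.92 against -1.65 and -1.85. Vwf relative to Cdh5 was -0.15 and 0.11 in aged and -1.41 and -0.20 in young MFP. The ages did not overlap in 8 of the 16 ratios, these 5, 2 of the role means given next, and Efnb2 relative to Ephb4. In that ratio, the arterial ligand over its venous receptor, the separation was small, at -1.42 and -1.52 against -1.41 and -1.42. No such share was computed for ratios of other genes. Among all single genes tested, 23.3% lay above and 22.8% below without overlap, so the count of 8 is not read as a result.

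Relative to the mean log2 CPM of the pan-endothelial genes, the lymphatic mean was -4.33 and -4.03 in aged and -4.66 and -4.79 in young MFP, and the venous mean was -2.13 and -1.94 against -2.45 and -2.25, both without overlap. The lymphatic separation rested on Mmrn1, since Flt4 and Prox1 alone gave -3.55 and -3.47 in aged and -3.51 and -3.59 in young MFP. For the venous mean, Vcam1 in young replicate 2 stood at -1.09 from its mean over all libraries. The other venous members were above their own means in that library. A venous mean without Vcam1 was not taken, so the part of that gene in the venous separation was not tested. The venous mean was lowest in young replicate 1, at -2.45. For the arterial mean the aged libraries, at -1.83 and -1.80, lay between the young, at -1.95 and -1.70. Pecam1 relative to Cdh5 set young replicate 1 apart, at 0.42 where the other 3 libraries were between -0.47 and -0.39, and so did Fli1 relative to Erg, at 2.04 where the others were between 0.58 and 1.03. With 2 libraries per age none of these ratios can reach an exact permutation p below 0.333.

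**Figure D4:**
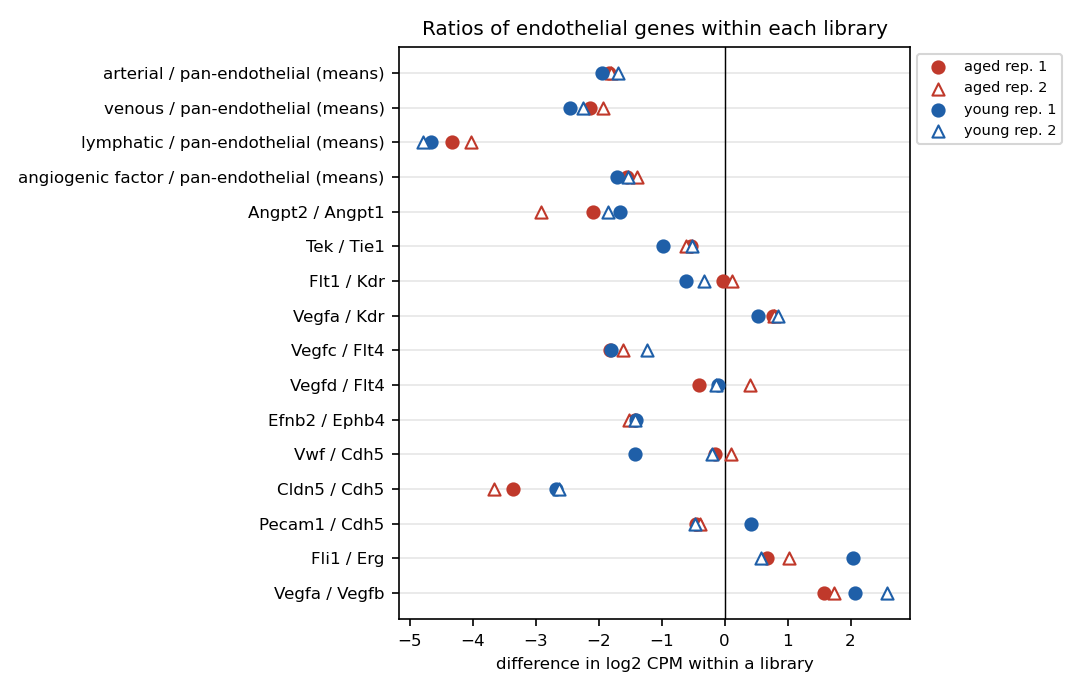
Ratios of endothelial genes within each library, as differences in log2 CPM (horizontal axis), with red for aged and blue for young libraries, filled circles for replicate 1 and open triangles for replicate 2. The ages separate for Flt1 over Kdr and Cldn5 over Cdh5, and young replicate 1 stands alone at 0.42 for Pecam1 over Cdh5 and at 2.04 for Fli1 over Erg.

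Further genes of the same vessels, listed apart from the 45, were tested in the same fit, and 0 were called by edgeR in any list. Of 36 other blood endothelial genes, 26 were positive and 10 negative, with a median log2 fold change of 0.26. The largest increase was that of Thbd, thrombomodulin, the anticoagulant receptor of the endothelial surface, at 97.5 and 75.4 CPM against 38.7 and 51.4 CPM, a log2 fold change of 0.94 ± 0.23 (SE, adjusted p = 0.406, edgeR). The largest decrease, that of Ets1, an ETS factor of endothelium and lymphocytes, rested on young replicate 1, at 398 CPM where the other libraries were between 85.8 and 105 CPM. Among 15 other arterial and Notch genes, 13 were positive, with a median of 0.46, from Unc5b, a netrin receptor, at 0.76 to Cxcr4, a chemokine receptor of lymphocytes and tip cells, at -1.32. Cxcr4 too was highest in young replicate 1, at 42.8 CPM, with the others between 6.26 and 12.8 CPM. Both aged CPM lay above both young in 18 of these 36 and 8 of these 15 genes, and below in 2 and 0. Those shares stand beside 23.3% and 22.8% of all genes. In the further venous, lymphatic and angiogenic lists the counts above were 3 of 11, 2 of 7 and 10 of 22, and those below were 1, 0 and 4.

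Of 11 further venous and inflamed-vessel genes tested, 7 were positive, with a median of 0.18. The largest increase was that of the leukotriene receptor Cysltr1, at 4.40 and 4.54 CPM against 2.00 and 3.78 CPM. Fut7, the largest decrease of this list, was highest in young replicate 1, as were Chst4 and Madcam1, and all 3 are known from high endothelial venules, the vessels of lymph nodes through which lymphocytes enter. Chst4, a sulfotransferase that makes selectin ligands, had 402 counts in that library and at most 1 in each other. The fucosyltransferase gene Fut7 was at 4.16 CPM there and at most 0.281 CPM elsewhere, and the addressin Madcam1 at 2.13 CPM there and at most 0.393 CPM elsewhere. Chst4 and Madcam1 were picked once their values were known. These values stood beside the high lymphocyte markers of the same library, while Selp, Sele and Ackr1 were at their lowest there. Over the 11 tested genes of this list, young replicate 1 was highest in 3 and lowest in 5. Over all genes tested its shares were 34.1% highest and 33.8% lowest, so these genes do not stand for the list.

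Of 22 other angiogenic ligands, receptors and inhibitors tested, 15 were positive and 7 negative, with a median of 0.27. DESeq2 called 4 of them higher (Fgf1, Fgf2, Epas1 and Thbs2) and 1 lower (Apln) in aged MFP. Over all 22385 genes with a DESeq2 adjusted p, it called 3.17% higher and 0.692% lower. Apln, the ligand of the member Aplnr and a product of sprouting tip cells and adipocytes, was at 4.81 and 3.63 CPM in aged and 11.2 and 15.1 CPM in young MFP (log2 fold change -1.64 ± 0.29 SE, adjusted p = 0.36, edgeR). Its receptor Aplnr was at 39.4 and 23.97 CPM against 25.9 and 34.3 CPM, with no separation of the ages. The largest increase was that of the vasohibin Vash2, at 2.58 and 15.1 CPM against 1.48 and 1.88 CPM, which rests on aged replicate 2. Epas1, the hypoxia-inducible factor of endothelium and fat, was at 719 and 577 CPM against 341 and 380 CPM, a log2 fold change of 0.85 ± 0.20 (SE, adjusted p = 0.406, edgeR). Fgf1, Fgf2, Thbs2 and Epas1 were named for their DESeq2 calls, after their values were seen.

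Cells that wrap vessels were compared on 12 pericyte and smooth muscle markers, of which 11 had positive log2 fold changes with a median of 0.33, and the sums were 1827 and 2213 CPM in aged and 1027 and 1529 CPM in young MFP. The largest increase was that of Des, desmin, which skeletal muscle shares, at 507 and 752 CPM against 122 and 132 CPM, and the only negative value was -0.26 for Tagln. Fibroblast markers gave sums of 2281 and 1663 CPM against 3249 and 3818 CPM, but 5 of the 8 had positive log2 fold changes, with a median of 0.68, Dcn being highest at 1.33 and Col1a1 lowest at -1.60. Mammary epithelial sums were 1583 and 1564 CPM against 869 and 2120 CPM, with the young libraries on either side of the aged. Of 8 macrophage markers 7 had positive log2 fold changes, with a median of 0.51, although their sums were 353 and 446 CPM against 584 and 252 CPM, Lyz2 alone reaching 374 CPM in young replicate 1. Proliferation markers summed to 15.3 and 39.0 CPM in aged and 117 and 37.3 CPM in young MFP. The largest increase and decrease were 1.36 for Krt5 and -0.17 for Krt8 among epithelial markers, 0.81 for Mrc1 and -1.12 for Lyz2 among macrophage markers, and 6.91 for Jchain and -3.89 for Cd8b1 among lymphocyte markers. Adipocyte markers ran from -0.05 for Retn to 1.20 for Lep, skeletal muscle markers from 1.04 for Myl1 to 3.13 for Myh1, red cell markers from 1.07 for Hbb-bt to 1.39 for Hba-a1, proliferation markers from -2.05 for Bub1 to -0.60 for Ube2c, and the lowest platelet marker was Itga2b at -0.87. The part of these shifts in cell content in the endothelial values was not tested.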

How the data were processed

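Total RNA of 4 MFP samples, depleted of ribosomal RNA and prepared with a directional kit, was sequenced by the authors. The values deposited by the authors are counts of reads on each gene, not normalized. Per the labels (submitters' processing notes), featureCounts, R 3.6.1 and the builds hg38 and GRCm38 were used. The aligner, annotation and strand setting are not given in the sources used here, so reads of overlapping antisense genes may be mixed for 12 members with an exon overlap on the other strand, among them Eng, Selp, Gja5 and Prox1, and 2 members (Egfl7 and Ackr1) share exon sequence with a gene on the same strand.

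The members and gene lists were chosen with earlier results of these data known. Groups and replicate numbers come from the sample titles. Counts were filtered by filterByExpr (22485 genes kept), scaled by TMM and tested with edgeR 4.0.16 (quasi-likelihood, legacy method, R 4.3.3), with age as the only term and a Benjamini-Hochberg adjusted p of 0.05 over all genes tested. Standard errors are the fold change divided by the square root of F. Log2 CPM used a prior count of 2. DESeq2 1.42.0 and limma 3.58.1 were alternatives, as were other scalings, filters, blocks and leaving out each sample. Exon lengths and coordinates are from GENCODE M21 (GRCm38) and promoters from RefSeq (GRCm38.p6). The fit was also run on simulated data, but the outcome is not given here and is not used as support. The rule for named genes took all members and, of each further list, the genes with the largest increase and decrease; other genes of these lists were named with their values known.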

Additional observations from a re-analysis of the deposited data

How the results depend on the processing

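No gene was called by edgeR under the scalings, filters, blocks and left-out samples tried, nor by limma-voom in its single fit, so the count of 0 members called held under those alternatives. DESeq2 called 865 genes and 1 member, Mmrn1, at a log2 fold change of 1.85. The replicate numbers pair nothing by the labels, and the correlation of deviations of same-numbered samples was -0.48 over all genes and -0.07 over the members. With the replicate block 0 members were called, the median member log2 fold change was 0.29 and 1346 genes had an unadjusted p under 0.05. A crossed pairing block, added after the data were seen, gave 0 calls and 2494 such genes, where the fit without a block gave 2371. Neither block changed a call.

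Scaling by total counts moved the median of all genes to -0.22. Under it 6 members (Vwf, Sox7, Sele, Mmrn1, Vegfb and Vegfd) lay above and 3 (Cldn5, Egfl7 and Nos3) below young without overlap, and the log2 fold changes of Eng (-0.15), Esam (-0.11), Aqp1 (-0.011), Dll4 (-0.017), Vcam1 (-0.075), Aplnr (-0.094), Prox1 (-0.10), Vegfa (-0.13) and Vegfc (-0.010) turned negative. Upper quartile scaling turned Eng to -0.0082.

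Leaving out 1 sample in turn, where the lone sample of an age is assumed to vary like the others, gave a median member log2 fold change of 0.066 to 0.48. The sign turned in 20 members, whose values ran from -0.37 to 0.32 for Pecam1, -0.18 to 0.10 for Kdr, -0.20 to 0.29 for Eng, -0.15 to 0.26 for Esam, -0.45 to 0.24 for Robo4, -0.059 to 0.59 for Erg, -0.74 to 0.41 for Fli1, -0.28 to 0.15 for Nos3, -0.18 to 0.42 for Aqp1, -0.036 to 0.35 for Rgcc, -0.76 to 0.49 for Hey1, -0.35 to 0.50 for Dll4, -0.58 to 0.057 for Notch4, -0.050 to 0.84 for Ackr1, -0.53 to 1.28 for Vcam1, -0.35 to 0.39 for Aplnr, -0.16 to 0.25 for Prox1, -0.19 to 0.32 for Vegfa, -0.17 to 0.62 for Vegfc, -0.71 to 0.44 for Angpt2. Non-overlap was not computed with a sample left out, for the block fits or for limma-voom. With 2 samples per age, and 1 young library rich in lymphocyte and proliferation markers, small shifts in endothelial genes were not resolved at this spread. The lowest count of any member was 29, for Mmrn1, and the part of depth was not tested.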
